A study of Homo sapiens with 6 samples.

Results

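Chromatin accessibility was examined at 10 genes of the WNT pathway, of 20033 protein-coding genes, in RKO colon cancer cells under low replication stress. The genes were 3 pathway parts (APC, CTNNB1 and TCF7L2), 2 TCF/LEF factors that are also transcribed in response to the pathway (TCF7 and LEF1) and 5 negative-feedback targets (RNF43, ZNRF3, AXIN2, NKD1 and NOTUM). A peak was assigned to a gene when its midpoint lay in the RefSeq gene body or within 1 kb of it. Peaks were merged across the samples where they shared 1 bp or more, and 54 of the 102784 merged regions belonged to the 10 genes. Of these 54 regions, 27 had a peak in every sample and could be tested, while 27 had no peak in at least 1 sample.

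RKO is an established human colon carcinoma line, and all cells came from this 1 line. The 3 treated samples (APH) received 0.2 µM aphidicolin for 16 h, and the 3 control samples received DMSO, the solvent. Aphidicolin inhibits the replicative DNA polymerases, so a low dose slows replication forks. ATAC-seq inserts sequencing adapters into open chromatin with the Tn5 transposase, and the study used it to ask whether low replication stress changed accessibility. Each deposited peak carried 1 value, called signal here, which is the mean coverage in 32-nt bins over the peak and is therefore a level per length.

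The WNT pathway controls the amount of β-catenin, the product of CTNNB1. Without a WNT ligand, β-catenin is bound by a destruction complex that contains APC and axin and is then degraded. With a ligand, it accumulates, enters the nucleus and binds TCF/LEF factors on DNA, which turns on target genes. Several targets act back on the pathway: RNF43 and ZNRF3 remove Frizzled receptors from the cell surface, AXIN2 rebuilds the destruction complex, NKD1 acts on Dishevelled and NOTUM inactivates secreted WNT proteins. In the intestinal epithelium this pathway maintains stem cells, and it is often altered in colorectal cancer.

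Between 64511 and 84510 peaks were listed per sample, with 64511 to 77194 in DMSO and 70121 to 84510 in APH, and the mean signal over all peaks was 78.3 to 85.2 in DMSO and 69.4 to 73.0 in APH. The sequencing depth of the samples is unknown and the submitters do not state whether the signal was adjusted for it. Across the 11569 promoters tested, the log2 change from DMSO to APH had a median of -0.27, and depth and treatment cannot be told apart as sources of this shift of promoters. The 38093 tested regions more than 1 kb from a listed start of a protein-coding gene had a median of 0.0019. Changes of single promoters are therefore also given with each sample centred on its own median log2 signal over all promoters, called relative to the median of all promoters. On that scale the median change of all promoters was 0.0051. Of 9 epithelial and colon markers, EPCAM, KRT8 and CDX2 had a promoter peak in all 6 samples and KRT18 in 5, while CDH1, KRT19, CDX1 and VIL1 had none and KRT20 had one in 2 APH samples only. No marker of 5 for leukocytes and none of 3 for endothelial cells (a start was known for 2) had a promoter peak in every sample, and CD14 had one in 1 sample. Of 5 fibroblast markers, COL1A1 had a peak in every sample and PDGFRB in 1 sample.

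RefSeq promoter windows (GRCh38.p14) were found for 6 of the 10 genes, with 11 listed starts among them. The windows shown hold the 250 bases before a start that lay in or beside an accessible region, and were chosen because the accessibility results below turn on them. In the first 5, capitals mark CG dinucleotides, the substrate of DNA methylation. The APC windows lie at chr5:112707248-112707497 and chr5:112737635-112737884 on the plus strand, before the 2 listed starts.

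APC, first start: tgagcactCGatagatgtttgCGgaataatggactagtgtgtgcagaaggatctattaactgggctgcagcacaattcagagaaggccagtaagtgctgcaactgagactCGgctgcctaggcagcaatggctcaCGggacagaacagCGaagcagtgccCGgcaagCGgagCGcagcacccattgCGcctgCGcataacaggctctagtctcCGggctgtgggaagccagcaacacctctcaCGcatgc

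APC, second start: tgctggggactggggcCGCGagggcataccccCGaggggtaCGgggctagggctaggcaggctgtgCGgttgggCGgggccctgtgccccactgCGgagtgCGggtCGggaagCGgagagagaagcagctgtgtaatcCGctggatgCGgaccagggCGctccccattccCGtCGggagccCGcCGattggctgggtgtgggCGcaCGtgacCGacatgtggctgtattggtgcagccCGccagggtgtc

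The CTNNB1 window lies at chr3:41199255-41199504 and the TCF7L2 window at chr10:112949997-112950246, both on the plus strand, and the RNF43 window lies at chr17:58417535-58417784 on the minus strand.

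CTNNB1: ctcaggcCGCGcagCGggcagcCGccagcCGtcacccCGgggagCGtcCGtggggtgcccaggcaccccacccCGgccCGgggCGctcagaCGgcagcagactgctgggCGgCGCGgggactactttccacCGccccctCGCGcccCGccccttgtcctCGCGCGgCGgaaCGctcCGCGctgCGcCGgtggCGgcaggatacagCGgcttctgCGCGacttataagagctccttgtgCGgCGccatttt

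TCF7L2, first start: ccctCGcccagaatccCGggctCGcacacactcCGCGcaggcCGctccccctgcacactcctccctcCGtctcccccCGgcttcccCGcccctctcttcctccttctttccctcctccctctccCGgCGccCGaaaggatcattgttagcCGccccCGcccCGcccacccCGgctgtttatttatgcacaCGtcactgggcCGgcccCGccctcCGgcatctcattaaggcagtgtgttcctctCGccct

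RNF43: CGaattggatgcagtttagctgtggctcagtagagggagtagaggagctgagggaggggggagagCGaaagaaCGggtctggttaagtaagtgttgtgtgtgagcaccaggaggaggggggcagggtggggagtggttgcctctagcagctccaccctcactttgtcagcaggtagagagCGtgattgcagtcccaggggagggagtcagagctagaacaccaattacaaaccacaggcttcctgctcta

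All 250 bases of each of these 5 windows lay inside a merged accessible region. CTNNB1 held 34 CG dinucleotides, the second APC start and TCF7L2 held 21 each, the first APC start 12 and RNF43 4, against a median of 11 over all 35116 windows. A TCF/LEF motif was searched on both strands as CTTTGNN with AA, AT, TA or TT as its last letters. It was present in 11.96% of all windows and in 2 of the 11 windows of these genes. The first was an internal start of TCF7L2, in the window chr10:113126383-113126632 on the plus strand, where capitals mark the motif 133 bases before the start.

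TCF7L2, internal start: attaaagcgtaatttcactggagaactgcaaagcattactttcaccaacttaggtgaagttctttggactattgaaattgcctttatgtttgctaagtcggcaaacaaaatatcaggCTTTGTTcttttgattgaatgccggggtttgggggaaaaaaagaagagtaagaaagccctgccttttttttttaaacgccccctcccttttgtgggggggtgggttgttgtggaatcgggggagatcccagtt

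Of that window, 110 of 250 bases lay inside an accessible region. The second was the window of a downstream TCF7 start at chr5:134123368-134123617, with the motif on the opposite strand 50 bases before the start, and no accessible region overlapped it. A motif match describes the letters of the window and says nothing of binding.

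The promoter of a gene was taken as its strongest region, by the mean over all 6 samples, with a midpoint within 1 kb of a listed start. By the DMSO samples alone the choice would differ for 1 of the 9 genes with such a region, AXIN2. In the DMSO samples 9 of the 10 genes had such a region in every sample, and NOTUM had none. The median signal over all promoters with a peak lay between 149 and 162 in the DMSO samples. The promoters of the pathway parts APC and TCF7L2 stood above it, with 248 ± 25.9 and 239 ± 16.2 (mean ± SD, n = 3). The other 7 were below it on average. TCF7 reached 141 ± 33.5, in a region that did not cover its start and also lay within 1 kb of a VDAC1 start. ZNRF3 had 133 ± 22.3, LEF1 118 ± 20.9, CTNNB1 109.6 ± 13.1 and RNF43 96.1 ± 13.9. The lowest were AXIN2 with 60.1 ± 1.38 and NKD1 with 49.4 ± 13.7. In this order the values of neighbours overlapped among the 3 DMSO samples except between TCF7L2 and TCF7 and between RNF43 and AXIN2. Ranked among all promoters with a peak, APC stood between percentiles 76.1 and 81.3 of the DMSO samples, and TCF7L2 between 72.7 and 80.6. At the other end, AXIN2 lay between 8.10 and 11.2 and NKD1 between 3.29 and 8.91. On average, the 4 feedback targets with a promoter region, both TCF/LEF targets and CTNNB1 were thus under the median promoter.

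**Figure D1:**
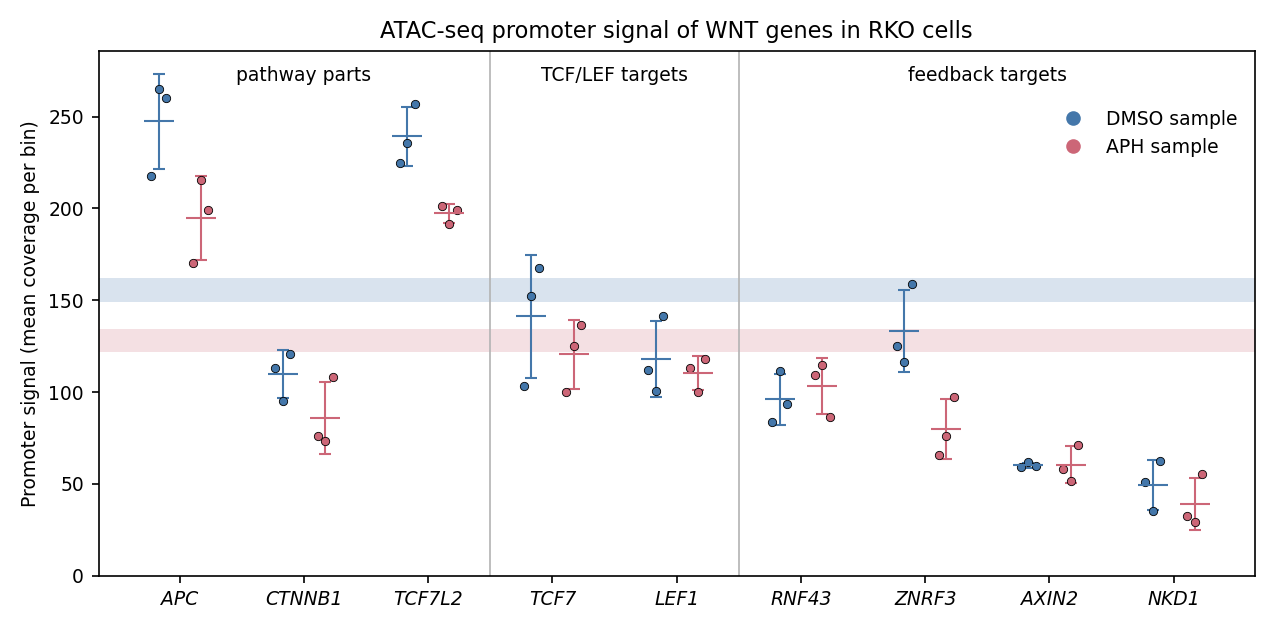
Promoter signal (vertical axis, mean coverage per 32-nt bin over the peak) of the 9 genes with a promoter region in every sample, by group. Points are samples, bars the mean ± SD of 3 samples, and the bands span the median of all promoters in the 3 DMSO (blue) and the 3 APH (red) samples. APC and TCF7L2 lie above the bands and AXIN2 and NKD1 far below. The DMSO and APH points of APC, TCF7L2 and ZNRF3 do not overlap, with APH lower, as in 42.9% of all promoters.

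APC, the scaffold of the destruction complex, had 6 regions along 139 kb, and both of its listed starts were accessible. The strongest region, chr5:112737538-112738128, covered the second start, with its midpoint 30335 bp inside the gene, and had a signal of 218, 265 and 259.9 in the 3 DMSO samples and 170.1, 215 and 199 in the 3 APH samples. Every APH sample was below every DMSO sample. The first start lay in chr5:112707199-112708167, with 169.6, 191 and 164 in the 3 DMSO samples and 139, 148 and 125 in the 3 APH samples, again without overlap. The log2 changes were -0.34 (SE 0.139) and -0.35 (SE 0.137). In the fit over all 50150 regions (limma, Benjamini-Hochberg) these had unadjusted p = 0.0247 and 0.0228 and adjusted p = 0.335 and 0.330, so neither passed 0.05. Both passed with the replicate number as a block (adjusted p = 0.0142 and 0.0209, limma), where 11.1% of all regions passed as lower. In the fit over promoters without a block the strongest region had adjusted p = 0.0698, and relative to the median of all promoters its change was -0.071. Further inside the gene, chr5:112757548-112757946 and chr5:112776307-112776716 had lower signals, with DMSO means of 44.1 and 75.6 and APH means of 33 and 58.7. The samples of both conditions overlapped there.

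CTNNB1, which encodes β-catenin, had 1 region with a peak in every sample. It was the promoter, chr3:41198884-41199781, with a signal of 113, 95.1 and 121 in the 3 DMSO samples and 76.1, 73.3 and 108 in the 3 APH samples. APH sample 3 lay within the range of the DMSO samples, and the other 2 APH samples were below it. The log2 change of -0.36 (SE 0.169) had adjusted p = 0.122 over all promoters (limma), and without APH sample 3 adjusted p = 0.0300. Relative to the median of all promoters the change was -0.090. The other 3 regions of the gene were seen in 2 to 4 samples, among them chr3:41200019-41200329 with 48.3 and 54.9 in DMSO samples 2 and 3 and no peak in APH.

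TCF7L2 encodes the TCF/LEF factor that is prominent in intestinal epithelium, and with 13 regions over 217 kb it had the most regions of the 10 genes. Its promoter, chr10:112949830-112950468, had a signal of 225, 236 and 257 in the 3 DMSO samples and 201, 191 and 199 in the 3 APH samples. The APH samples were all below the DMSO samples, with a log2 change of -0.27 (SE 0.105, adjusted p = 0.0785 over all promoters, limma). Relative to the median of all promoters the change was -0.00078. The strongest region of the gene was not the promoter but chr10:113073579-113074235, 123660 bp inside the gene, with 235, 308 and 250.4 in the 3 DMSO samples and 242, 303 and 253 in the 3 APH samples. The conditions overlapped fully there, with a log2 change of 0.012 (SE 0.143). A second region inside the gene, chr10:113087275-113087805, had means of 149 in DMSO and 153 in APH. The internal start with the TCF/LEF motif lay in chr10:113126523-113127030, with 77.5, 56.2 and 107 in the 3 DMSO samples and 73.8, 70.9 and 90.3 in the 3 APH samples, and here too the conditions overlapped. The weak region chr10:112963823-112964140, 13734 bp inside, was the only one of the 27 tested regions in which the conditions did not overlap and APH was higher, with 31.3, 32 and 29.6 in the 3 DMSO samples and 35.4, 39.3 and 39.5 in the 3 APH samples. Its log2 change of 0.29 (SE 0.197) had unadjusted p = 0.164.

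TCF7, a TCF/LEF factor known from T cells and transcribed in response to the pathway, had no region within 1 kb of its outermost start. Its promoter region, chr5:134114325-134115013, had its midpoint at -944 bp from a second listed start and also within 1 kb of a listed start of VDAC1. No accessible region overlapped the 250 bases before that TCF7 start. The accessibility of the promoter region cannot be assigned to one of these genes. Its signal was 104, 152 and 168 in the 3 DMSO samples and 100, 125 and 137 in the 3 APH samples, with overlap of the conditions and a log2 change of -0.21 (SE 0.180, adjusted p = 0.354, limma over promoters). Leaving out 1 sample moved it to between -0.42 (without DMSO sample 1) and -0.070 (without DMSO sample 3). Relative to the median of all promoters the value was 0.066, of the opposite sign. Of the 3 other regions tested in TCF7, chr5:134124776-134125505 had a log2 change of 0.24 (SE 0.188) and the other two had -0.24 and -0.091, with overlap of the conditions in each.

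LEF1, a TCF/LEF factor of lymphoid and stem cells, had 3 regions within about 2 kb of its 5′ end and 3 weak ones far inside the gene. The outermost, chr4:108168495-108169322, was the strongest, with 112, 101 and 141 in the 3 DMSO samples and 113, 100.2 and 118 in the 3 APH samples. The conditions overlapped, and the log2 change was -0.083 (SE 0.148, adjusted p = 0.651, limma over promoters). It was 0.19 relative to the median of all promoters. The middle region, chr4:108167523-108168093, had a peak of 68.9, 62.8 and 77.9 in the 3 DMSO samples and no peak in any APH sample. It was the only region of the 54 with this pattern, which 0.184% of all merged regions showed. No region had the opposite pattern, which 1.11% of all merged regions showed. The innermost of the 3, chr4:108166457-108167212, had 88.4, 92.7 and 92.9 in the 3 DMSO samples and 77.1, 77.7 and 89.6 in the 3 APH samples, with a log2 change of -0.17 (SE 0.163). Starts of the antisense gene LEF1-AS1 or of LOC124900752 are listed within 1 kb of these 3 regions, and accessibility cannot be assigned to one of these genes.

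ZNRF3, a membrane E3 ubiquitin ligase that removes Frizzled receptors, had the largest promoter change of the 9 tested. Its promoter, chr22:28882971-28883814, had a signal of 125, 116 and 159 in the 3 DMSO samples and 65.5, 76.3 and 97.5 in the 3 APH samples. Every APH sample was below every DMSO sample, and the mean fell from 133 ± 22.3 to 79.8 ± 16.3 (SD, n = 3). The log2 change was -0.74 (SE 0.171, adjusted p = 0.0459, limma over promoters). It was the only 1 of the 9 promoters to pass the threshold, where 10.9% of all promoters did so as lower and 0.0259% as higher in APH. The call was lost with another scaling, and relative to the median of all promoters the change was -0.47 with adjusted p = 0.497. When 1 sample was left out, the log2 change stayed between -0.89 and -0.61, with adjusted p between 0.0197 and 0.199. It was under 0.05 only without APH sample 3, and in the other 5 settings no promoter of all 11569 passed. Over all regions the same region had adjusted p = 0.290. Among all promoters with a peak, ZNRF3 ranked between percentiles 33.7 and 48.7 in DMSO and between 16.9 and 28.1 in APH. Weak peaks on either side, chr22:28882649-28882893 and chr22:28884792-28885271, were listed in APH samples 1 and 2 only, with signals of 38.6 to 43.3. Near the 3′ part of the gene, chr22:29031216-29031768 lay within 1 kb of a start of the antisense gene ZNRF3-AS1 and had means of 102 and 104, with overlap.

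RNF43, the paralog of ZNRF3 with the same action on Frizzled, had 2 regions in 65.0 kb. Its promoter, chr17:58417440-58417951, had a signal of 83.9, 111 and 93.3 in the 3 DMSO samples and 109, 115 and 86.1 in the 3 APH samples. The conditions overlapped, and it was the only 1 of the 9 promoters with a log2 change above 0, 0.10 (SE 0.157, adjusted p = 0.601, limma), which became 0.0099 without DMSO sample 1 and 0.23 without APH sample 3. Relative to the median of all promoters it was 0.38, the highest of the 9 (unadjusted p = 0.0376, adjusted p = 0.590, limma), and 4 of the 9 were above 0 on that scale. The difference between the changes of these paralogs was not tested. The other region, chr17:58351939-58352737, lay at the 3′ end of RNF43 and within 1 kb of a start of the neighbouring gene SUPT4H1, so that it is shared by both. It had 142, 153 and 144 in the 3 DMSO samples and 93, 100.3 and 111 in the 3 APH samples, all APH samples below all DMSO samples. Its log2 change of -0.53 (SE 0.143) had unadjusted p = 0.00199 and adjusted p = 0.290 over all regions.

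AXIN2, the inducible axin of the destruction complex and a widely used readout of the pathway, had low accessibility in both conditions. Its start lay in chr17:65561420-65562175, with 58, 52.6 and 73 in the 3 DMSO samples and 45.5, 40.5 and 70.6 in the 3 APH samples. The region taken as promoter, chr17:65560950-65561327, lay wholly downstream of that start, with 59.1, 61.7 and 59.6 in the 3 DMSO samples and 58.3, 51.5 and 71.4 in the 3 APH samples. It had the higher mean over all 6 samples, whereas in DMSO alone the region at the start was higher (61.2 against 60.1), so the choice drew on the APH values. The conditions overlapped in both, with log2 changes of -0.25 (SE 0.238) at the start and -0.0067 (SE 0.200) downstream in the fit over all regions. Relative to the median of all promoters the downstream region had 0.27.

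NKD1, which binds Dishevelled, had the weakest promoter of the 9, chr16:50548050-50548919, with 50.7, 35 and 62.3 in the 3 DMSO samples and 32.6, 29.3 and 55.1 in the 3 APH samples. The conditions overlapped and the log2 change was -0.35 (SE 0.260, adjusted p = 0.290, limma over promoters), or -0.074 relative to the median of all promoters. The first of these values ran from -0.62 without APH sample 3 to -0.16 without DMSO sample 3. NOTUM, a secreted enzyme that removes the lipid of WNT proteins, had no region within 1 kb of its start. Its strongest region, chr17:81959649-81960060, lay 1333 bp inside the gene, with 65.4, 39.1 and 48.1 in the 3 DMSO samples and 29.5, 40.8 and 38.4 in the 3 APH samples. APH sample 2 lay above DMSO sample 2, and the log2 change of -0.46 (SE 0.237) had unadjusted p = 0.0697. It was -0.27 without DMSO sample 1 and -0.63 without DMSO sample 2.

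**Figure D2:**
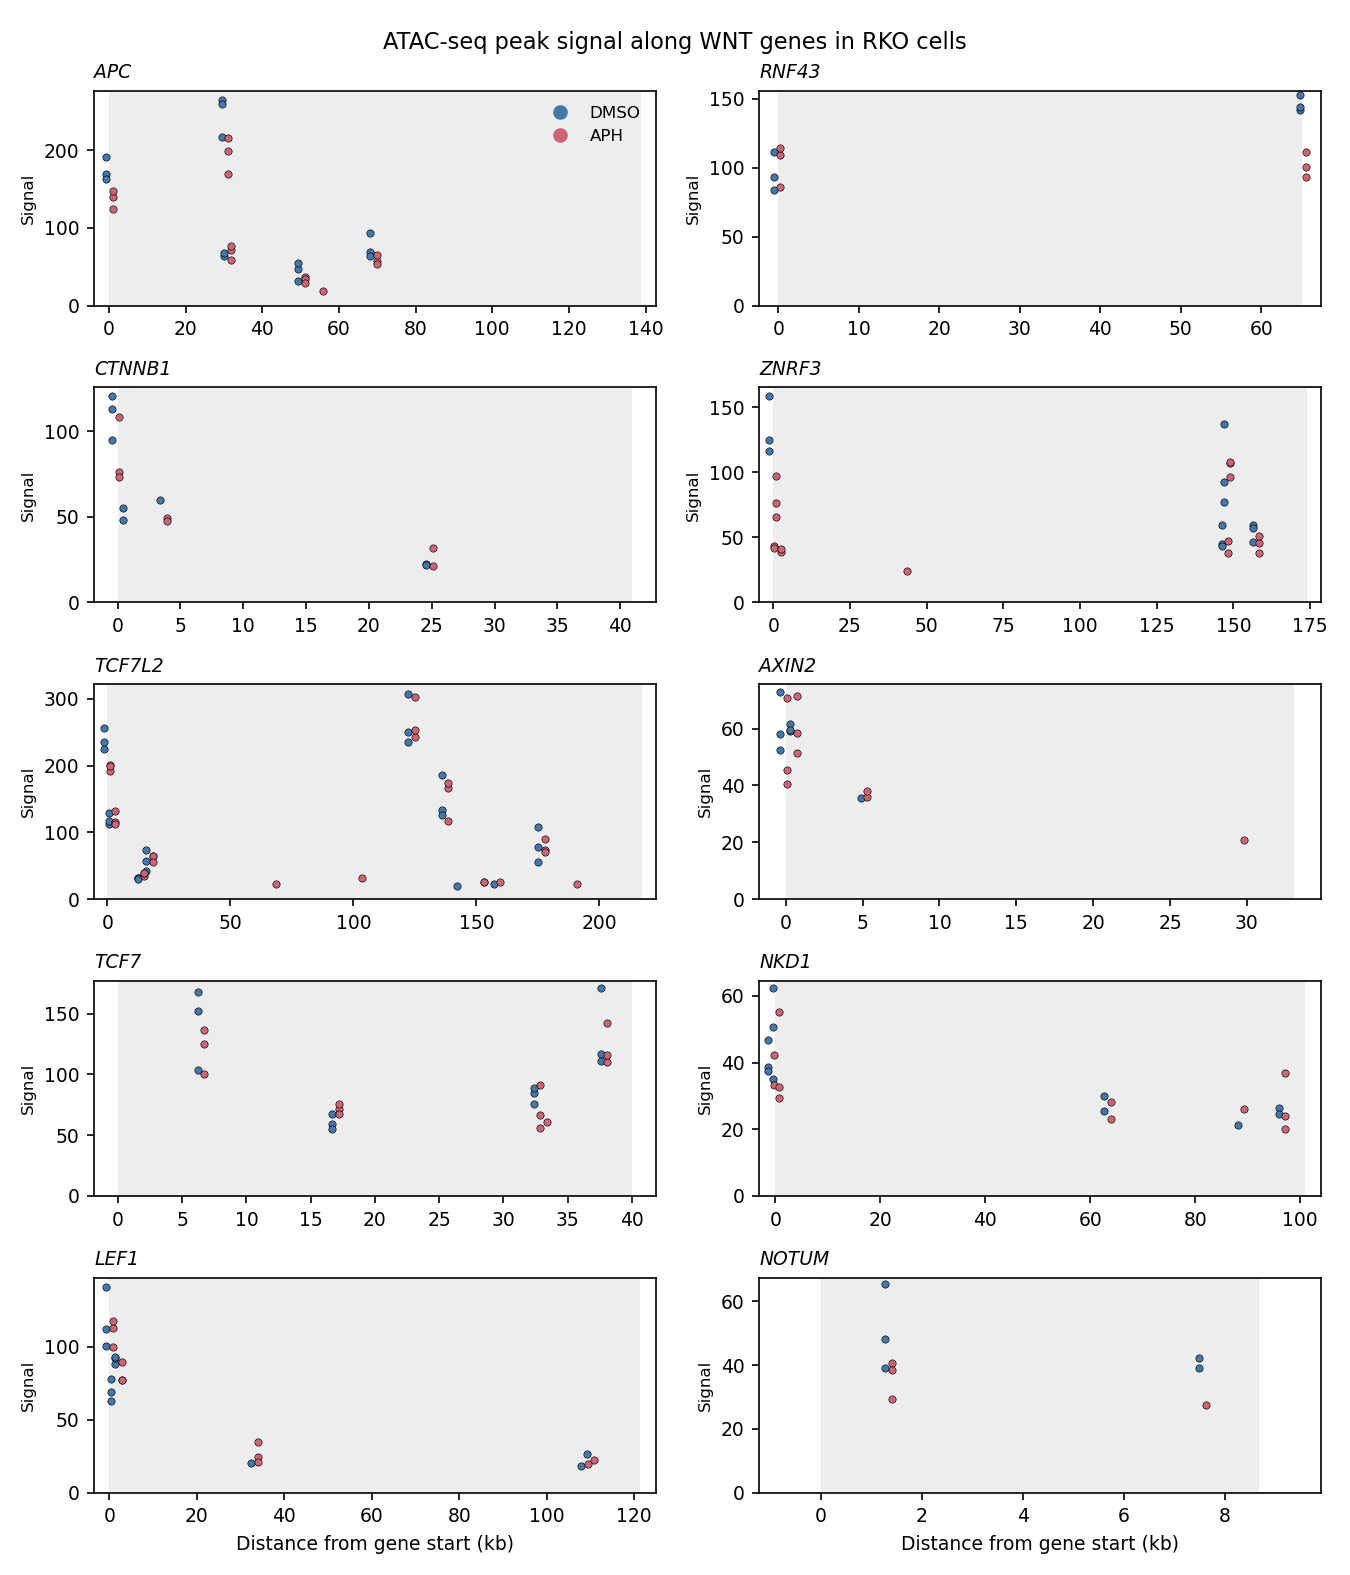
Signal of every merged region (vertical axis, mean coverage per 32-nt bin) against its distance from the 5′ end of the gene in kb (horizontal axis) for the 10 genes. Each point is 1 sample, blue DMSO (drawn slightly to the left) and red APH (slightly to the right), samples without a peak have no point, and the grey area is the gene body. The strongest region lay within 1 kb of a listed start of the gene in 7 genes and further away in RNF43, TCF7L2 and NOTUM.

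Of the 27 member regions that could be tested, 18 had a log2 change below 0 and 9 above, where 59.3% of all regions were below. The median was -0.21, against -0.059 over all 50150 regions. It was -0.14 for the 12 regions of pathway parts, -0.13 for the 6 of TCF/LEF targets and -0.28 for the 9 of feedback targets. Differences between these groups were not tested, and the 3 medians are descriptions of few regions. With stronger peaks only (at or above the median value), pathway parts had -0.27 and feedback targets -0.0067, so the order of these groups turned. In the main fit, which did not pair samples by replicate number, no region passed adjusted p 0.05 (limma), among the members or among all regions. With the replicate number as a block, 6 of the 27 passed as lower, where 11.1% of all regions were lower and 2.04% higher. In the main fit, at an unadjusted p under 0.05, 5 of the 27 were lower and 0 higher, where 10.1% of all regions were lower and 2.46% higher. These 5 were both APC starts, the TCF7L2 and ZNRF3 promoters and the region shared by RNF43 and SUPT4H1. The same 5 regions were those where the APH and DMSO samples did not overlap with APH lower, a pattern of 14.4% of all regions, and 1 had APH higher, against 4.21%.

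Regions near a gene start and further away were then set side by side. Of the 27 regions, 13 lay within 1 kb of a listed start of their own gene, with a median log2 change of -0.25, and 11 of the 13 were below 0. The 14 regions further away had a median of -0.045, with 7 below and 7 above 0. Counting starts of any protein-coding gene, which adds the region at the SUPT4H1 start to those near a start, the medians were -0.26 for 14 near and 0.00074 for 13 further away. Split in this way, all regions had medians of -0.25 for 12057 regions near a start of a protein-coding gene and 0.0019 for 38093 further away.

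**Figure D3:**
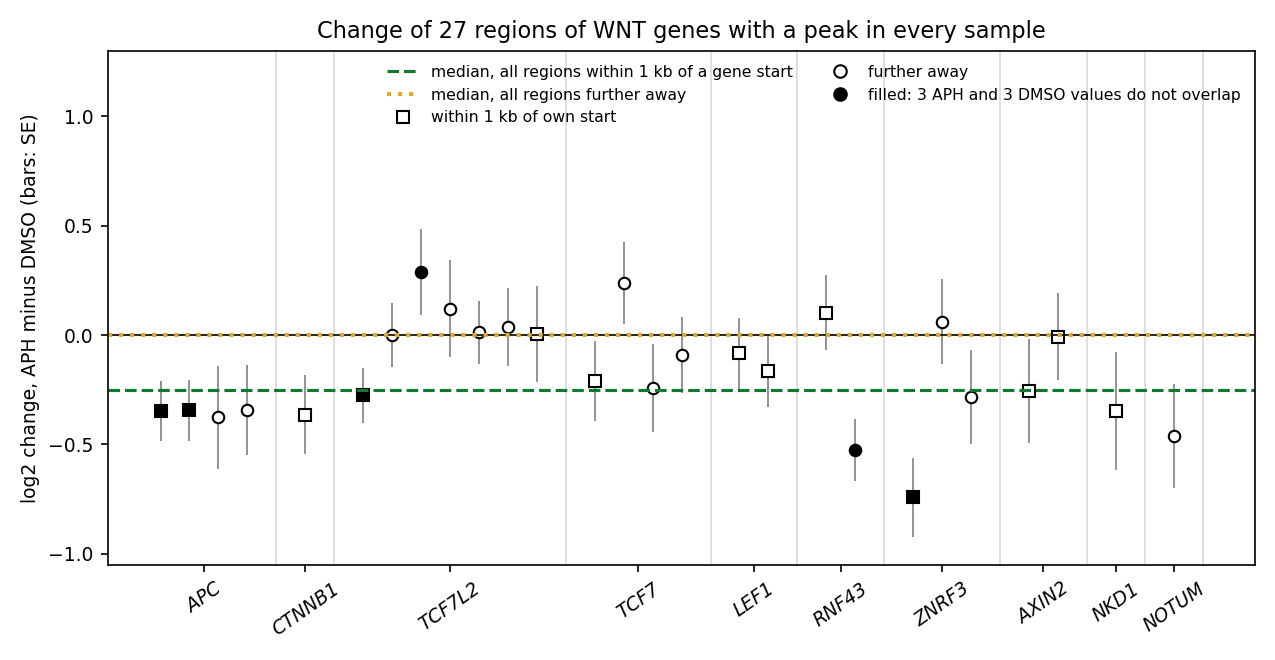
Log2 change of signal from DMSO to APH (vertical axis, bars ± SE from limma) of the 27 regions that could be tested, by gene and in the order of transcription. Squares lie within 1 kb of a start of the same gene, circles further away (the lowest circle of RNF43 is at the SUPT4H1 start), filled symbols have no overlap between 3 APH and 3 DMSO samples, and the lines are the medians of all regions near a gene start (-0.25) and further away (0.0019). Most squares lie near the lower line, ZNRF3 lies below it and RNF43 above 0.

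Of the 9 promoters, 8 had a log2 change below 0, where 92.5% of all promoters did, with a median of -0.27 against -0.27 over all promoters. The 3 samples of each condition did not overlap in 3 of the 9 (APC, TCF7L2 and ZNRF3), where 42.9% of all promoters were lower without overlap.

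The signal was then summed over all peaks of a gene, as signal multiplied by length in kb. TCF7L2 had the largest sum, 512 ± 31.2 in DMSO and 497 ± 23.2 in APH (SD, n = 3), followed by APC with 349 ± 17.6 and 289 ± 19.4. NOTUM had the smallest, 23.2 ± 10.0 and 12.9 ± 5.34. All 10 sums had a log2 change below 0, where 79.4% of all genes did, with a median of -0.27 against -0.22 over 15040 genes, and no gene of the 10 passed adjusted p 0.05 (limma), where 16% of all genes did so as lower and 0.346% as higher. At an unadjusted p under 0.05, 4 were lower (APC, CTNNB1, RNF43 and ZNRF3) and none higher, against 36.6% and 1.66%. The samples of the conditions did not overlap in 5 genes, all lower in APH (these 4 and NKD1), where 38.5% of all genes were lower and 2.09% higher without overlap. The RNF43 sum includes the region shared with SUPT4H1, whose mean signal was 146 in DMSO and 102 in APH. The RNF43 promoter region had means of 96.1 in DMSO and 103 in APH. APC was nearest to the threshold, with sums of 331, 366 and 351 in DMSO and 268, 306 and 293 in APH, a log2 change of -0.27 (SE 0.0856) and adjusted p = 0.0516. With each sample centred on its median over all genes, the APC change was -0.042, where the median change of all genes was 0.014. The values of TCF7, TCF7L2 and AXIN2 were above 0 on that scale. There none of the 10 was lower and 2 were higher at an unadjusted p under 0.05 (TCF7 and TCF7L2, limma), against 4.91% lower and 8.66% higher of all genes.

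The number of peaks in the 10 genes was 37, 41 and 33 in the DMSO samples and 43, 43 and 34 in the APH samples, with overlap of the conditions. Per gene, TCF7L2 had 7, 9 and 7 peaks in DMSO and 9 in each APH sample, and ZNRF3 had 4 in each DMSO sample and 6, 6 and 4 in APH. In both, exact p = 0.4 (exact permutation test on the mean peak number, two-sided), the lowest of the 10 genes, while 3 against 3 samples cannot give a p below 0.1. In no gene did the peak numbers of the conditions separate, where 2.97% of all genes had more peaks in every APH sample and 0.358% fewer. Of the 54 regions, 10 had peaks in APH samples only (18.5%, against 18.5% of all merged regions) and 3 in DMSO samples only (5.56%, against 7.03%). Of the 10, 5 were in pathway parts, 1 in TCF7 and 4 in feedback targets.

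The other genes of the pathway were examined at their promoters, as 85 genes in 7 lists. Of these, 46 had a promoter region with a peak in every sample and 31 had none in any sample, where 58.8% and 36.4% of all genes with a known start did. Differences between lists were not tested. Counted by list, 11 of 14 receptor genes and 11 of 12 genes of cytoplasmic parts had a peak in every sample, as did 5 of 19 WNT ligand genes (WNT1, WNT2B, WNT8A, WNT9B and WNT11) and 2 of 9 secreted inhibitors, DKK4 and SFRP4. PORCN and WLS, which modify and carry WNT proteins for secretion and were kept in the list of ligands, both had one. The highest promoter signal of a list in DMSO was that of GSK3A among the cytoplasmic parts, with 456, TBX3 among the targets, with 434, TLE4 among the nuclear parts, with 407, FZD1 among the receptors, with 327, DKK4 among the secreted inhibitors, with 233, WNT2B among the ligands, with 193, and LGR4 among the R-spondins and LGR genes, with 151. No peak was listed in any sample at the promoters of the secreted inhibitors DKK1, DKK2, DKK3, SFRP1, SFRP2, SFRP5 and WIF1. Of the R-spondin ligands and their LGR receptors, LGR4, LGR5 and LGR6 had a peak in every sample and none of the 4 R-spondin genes did.

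Of the 46 promoters tested, 41 had a log2 change below 0, where 92.5% of all promoters did, and the median was -0.21. Of the 46, 4 passed the threshold as lower in APH and none as higher (limma), where the background was 10.9% and 0.0259%. They were the β-catenin kinases GSK3B and CSNK1A1, with -0.42 (adjusted p = 0.0466) and -0.39 (adjusted p = 0.0477), the β-catenin inhibitor CTNNBIP1, with -0.54 (adjusted p = 0.0459), and the corepressor TLE4, with -0.48 (adjusted p = 0.0459). None of the 4 passed relative to the median of all promoters, on which scale no promoter of the genome did. At an unadjusted p under 0.05, 13 more were lower: the receptors FZD2 and LRP6, the cytoplasmic parts DVL2, AXIN1, CSNK1D, APC2 and AMER1, the nuclear parts BCL9L and TLE1, the secreted inhibitor DKK4 and the targets EPHB3, CD44 and TBX3. Their log2 changes ran from -0.55 for AXIN1 to -0.30 for CD44. SOX9, a target and transcription factor of intestinal stem cells, was the only one higher at that level, where 41.5% of all promoters were lower and 0.467% higher. Its promoter signal was 37.3, 40.9 and 30.5 in the 3 DMSO samples and 60.3, 50.8 and 44.8 in the 3 APH samples, without overlap of the conditions (all APH higher in 0.674% of all promoters), and its log2 change was 0.51 (adjusted p = 0.0715). WNT9B had the same pattern, with 37.8, 44.8 and 42.6 in the 3 DMSO samples and 54.5, 56 and 47.2 in the 3 APH samples. The log2 change of WNT9B was 0.33 (adjusted p = 0.148, limma). By list, the median change was -0.32 for cytoplasmic parts, -0.32 for nuclear parts, -0.21 for receptors, -0.24 for other targets, -0.11 for ligands with PORCN and WLS, -0.12 for the 2 secreted inhibitors and 0.012 for the 3 LGR genes, against -0.27 over all promoters.

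**Figure D4:**
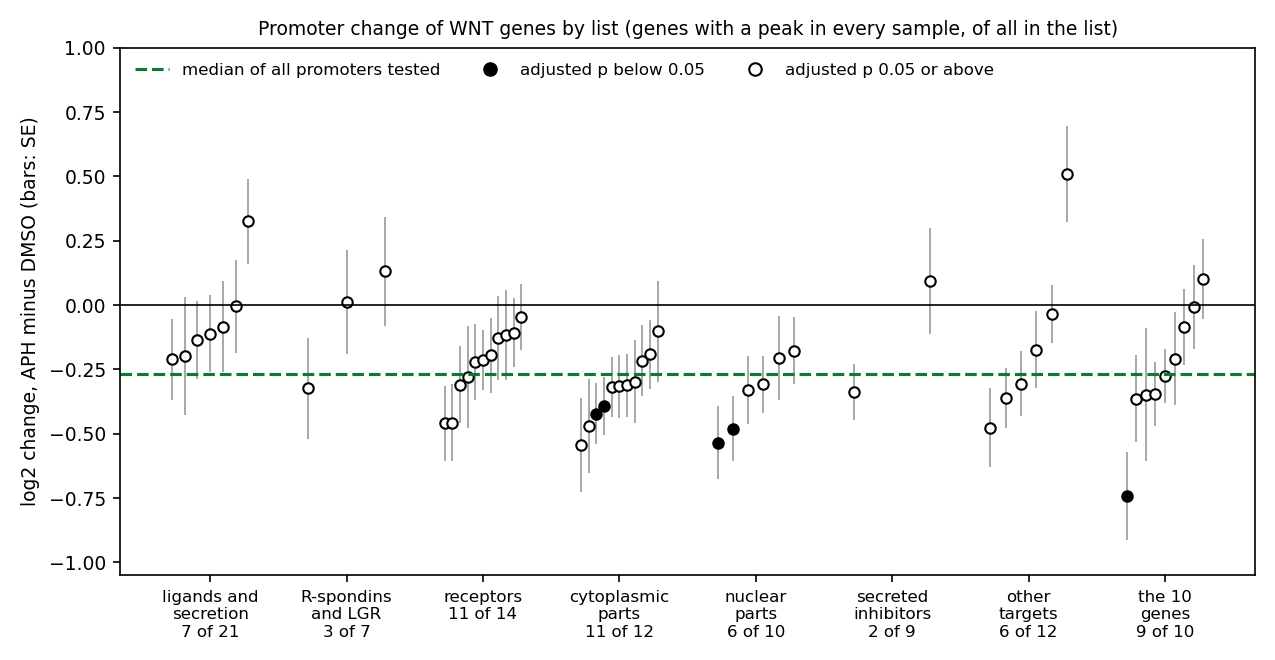
Log2 change of promoter signal from DMSO to APH (vertical axis, bars ± SE from limma) of the genes of 7 WNT lists and of the 10 genes, with the number tested of the number in each list under its name. Filled points passed adjusted p 0.05 and the dashed line is the median of all promoters, -0.27. The filled points are GSK3B, CSNK1A1, TLE4, CTNNBIP1 and ZNRF3, all below the line.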

How the data were processed

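Frozen RKO cells of 3 DMSO and 3 APH samples from independent experiments were sent by the authors to a company (Active Motif), which performed ATAC-seq. Per the labels and the study's methods, reads were aligned to hg38 with BWA 0.7.12 and peaks were called in each sample with MACS2 2.1.0 (versions from the submitters' processing notes). The sources used here do not state whether the Tn5 offset was corrected. The authors deposited, for each peak, its signal, which is mean coverage over the peak, from alignments lengthened to 200 bp and summed per 32-nt bin. Signal times the number of bins was whole, to within a rounding error of 5e-05 in signal (0.0005 from 100 upwards), for 99.987% to 99.996% of the peaks under 1000 in signal and 1000 bp in width (94.6% to 97.8% of each sample's peaks). The values thus showed no fractional scaling factor, but the submitters do not state whether reads were sampled to an equal number. Depth is unknown and no counting interval is given.

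Peaks were merged across samples, and each region took, per sample, the length-weighted mean of its peaks. Regions and promoters with a peak in every sample, and summed signal of genes, were compared with limma 3.58.1 (R 4.3.3) on log2(value + 1) with an intensity trend and Benjamini-Hochberg adjustment over all features at 0.05. With a pseudocount of 1, the change of low values is understated. Filtering on a peak in every sample leaves out regions seen in part of the samples, which are given by presence. Single values were compared with an exact permutation test. Gene bodies came from RefSeq (GRCh38.p14), and strands from the RefSeq promoter table for 15841 protein-coding genes and from GENCODE by symbol for 3830. The starts of a gene were its 5′ end and all starts in that table. This was chosen over the first listed start after seeing that 1 start per gene missed accessible promoters, and both were run. Exons, introns and UTRs were not annotated here, since the genome at hand is of another build.

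The members and lists were chosen with earlier results of these data known. All 10 genes are named, with the promoter and the strongest region of each, regions at an unadjusted p under 0.05 and regions seen in all samples of 1 condition only. Other WNT genes are named at an unadjusted p under 0.05 or as up to 4 with the highest signal in their list. Genes named for having a peak in every sample or in none were chosen after their values were seen. The alternatives were centring, quantile normalization, a pseudocount of 8, other peak filters, overlaps and distances, a replicate block and leaving out each sample in turn. After the data were seen, the first listed start alone and signal summed over all peaks within 1 kb of a start were added for promoters.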

Additional observations from a re-analysis of the deposited data

How the results depend on the processing

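Of the 10 genes, the number of promoters past adjusted p 0.05 was 1 (ZNRF3), but 0 when samples were centred on the median, 0 under quantile normalization, 0 when promoters with a peak in any sample entered with absent peaks at the lowest value (3 of all 12510 were lower and 2 higher), and 0 to 2 when 1 sample was left out (2 without APH sample 3, where 23.2% of all promoters were lower, and 0 in the other 5, where none of all promoters passed). The ZNRF3 change was -0.74 with absent peaks. Over all genes, 2410 sums were lower and 52 higher in APH, against 1 lower and 4 higher after centring, and 1258 promoters were lower and 3 higher, against none after centring (limma, Benjamini-Hochberg), where at an unadjusted p under 0.05 ZNRF3 was lower and RNF43 higher, against 2.43% and 5.69% of all promoters. The count of member regions past the threshold was 0, and 1 (the LEF1 region seen in DMSO only) with absent peaks at the lowest value, where 31 of 102784 regions were lower and 77 higher. That of summed genes was 0, and 0 to 1 with 1 sample left out (CTNNB1 without APH sample 3, where 24.7% of all sums were lower).

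With the replicate number as a block, 6 regions, 5 summed genes and 4 promoters passed, all lower in APH, where 11.1% of all regions, 45.1% of all sums and 56.9% of all promoters were lower. The regions were both APC starts, the CTNNB1, TCF7L2 and ZNRF3 promoters and the region shared by RNF43 and SUPT4H1. The sums were those of CTNNB1, LEF1, APC, RNF43 and ZNRF3. The promoters were those of CTNNB1, APC, TCF7L2 and ZNRF3. Residuals of same-numbered samples correlated at -0.00665, 0.477 and 0.515 for numbers 1, 2 and 3. Samples 2 and 3 correlated best with their own number. DMSO sample 2 and APH sample 3 gave -0.562, and DMSO sample 3 and APH sample 2 gave -0.404. Both samples 1 correlated best with another number. The paper describes 3 independent experiments, while the sample titles give only the numbers. This check does not settle the pairing. The main fits left it out, and the number of calls depends on that choice.

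The median change of all member regions was -0.060 under quantile normalization, 0.0024 with absent peaks at the lowest value, -0.13 with stronger peaks only and -0.27 to -0.13 with 1 sample left out. Over all regions the first 3 of these were -0.0066, 0.042 and -0.15, so that with stronger peaks the members lay above all regions. For pathway parts the 4 values were 0.0077, 0.038, -0.27 and -0.20 to -0.14, and 0.00074 with 5 kb around the gene. For TCF/LEF targets the value was 0.00092 under quantile normalization and -0.18 to -0.091 with 1 sample left out. For feedback targets it was -0.043 with absent peaks, -0.0067 with stronger peaks and -0.49 to -0.16 with 1 sample left out. The 10 genes had 3 more peaks in APH on average, and a difference of -3.33 among stronger peaks, -0.333 when each sample kept as many peaks as the smallest and 1 to 6 with 1 sample left out.

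Some changes that had not passed took the opposite sign. After centring these were the promoters of LEF1 (0.19), TCF7 (0.066) and AXIN2 (0.27), the AXIN2 region (0.021), and the sums of TCF7 (0.20), TCF7L2 (0.19) and AXIN2 (0.21). Under quantile normalization they were the promoters of LEF1 (0.18), TCF7 (0.075) and AXIN2 (0.17), the LEF1 region (0.056), and the sums of LEF1 (0.0024), TCF7 (0.21), TCF7L2 (0.18) and AXIN2 (0.082). With 1 sample left out, ranges crossed 0 for the promoters of AXIN2 (-0.13 to 0.10) and LEF1 (-0.19 to 0.052), the strongest TCF7L2 region (-0.084 to 0.13), and the sums of AXIN2 (-0.14 to 0.13), TCF7 (-0.11 to 0.057) and TCF7L2 (-0.087 to 0.00054). Unless the construction of the alternative shows it, the cause was not tested. The unknown depth limits every comparison between samples, and a missing peak can be a peak just under the caller's threshold.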
